A study of Homo sapiens with 6 samples.

Results

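CXCR4 is a G protein-coupled chemokine receptor and CXCL12, also called SDF-1, is its chemokine ligand. On arrays of HCT-15 cells, an established human colon cancer cell line, they were 2 of 927 named genes and were represented by 4 of 1259 probe sets, 1 for CXCR4 and 3 for CXCL12. The members were all probe sets whose name carries a RefSeq transcript of either gene, and the pair was chosen on its treated and untreated values on these arrays, so those values are given as a description with no test. The groups were 3 arrays of HCT-15 cells treated with 5-aza-2'-deoxycytidine and 3 arrays of untreated HCT-15 cells. The drug replaces cytosine in newly made DNA and traps DNA methyltransferases there, so that methylation is lost as cells divide. Dose and duration were not given in the labels, nor is it said that the arrays of a group came from separate cultures, so the spread between them may be technical. Untreated replicate 3 bears a title that says treated, against its source name and treatment entry. It was kept as untreated, and results are also given without it.

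CXCL12 is released mainly by stromal and endothelial cells and draws cells that carry CXCR4 along its gradient. In colon cancer the receptor is known for its part in migration and metastasis of the tumour cells. Tyrosine sulfation of the receptor's outer end strengthens binding of the ligand, and heparan sulfate on cell surfaces holds the ligand in place.

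The windows of 250 bases upstream of the annotated starts are shown here because the drug acts on the methylation of CG dinucleotides and because the receptor's values stood apart between the groups while those of its ligand overlapped. Capitals mark each CG, which reads alike on both strands. The sequences are from RefSeq, build GRCh38.p14, minus strand, 5′ to 3′, and both genes matched the promoter table. The CXCR4 window lies at chr2:136118150-136118399 and CXCL12 at chr10:44385098-44385347.
CXCR4: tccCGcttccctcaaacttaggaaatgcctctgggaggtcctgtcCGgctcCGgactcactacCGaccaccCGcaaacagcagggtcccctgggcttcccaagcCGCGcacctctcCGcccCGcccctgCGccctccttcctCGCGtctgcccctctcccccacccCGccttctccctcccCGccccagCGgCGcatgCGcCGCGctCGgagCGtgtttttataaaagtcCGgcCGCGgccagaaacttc
CXCL12: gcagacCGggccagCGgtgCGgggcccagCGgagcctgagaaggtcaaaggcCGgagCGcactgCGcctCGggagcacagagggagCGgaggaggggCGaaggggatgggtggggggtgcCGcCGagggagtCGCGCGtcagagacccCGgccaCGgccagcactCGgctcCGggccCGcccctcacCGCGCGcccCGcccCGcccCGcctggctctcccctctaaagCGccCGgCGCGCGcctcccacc
The CXCR4 window holds 24 CG dinucleotides, and 23.7% of the 35116 windows of this length in the table hold at least as many. The CXCL12 window holds 31, a number reached by 10.9% of the windows, whose median was 11. The table lists 2 further starts for CXCR4, inside the gene, with 12 and 8 CG dinucleotides upstream. The letters GGGCGG, counted on both strands with overlaps allowed, occur 3 times in the CXCR4 window shown and 3 times in the CXCL12 window, and 42.6% of all windows hold them at least once. These counts describe letters in a window. Methylation of the windows was not measured in this series.

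CXCR4 was higher on every treated array. Its probe set, named for NM_003467, read 5.17, 5.21 and 5.10 on the 3 treated arrays, against 3.58, 3.78 and 3.63 on the 3 untreated arrays, in log2 units of RMA, which removes background, brings arrays to a shared scale and gives each probe set a single value. The groups did not overlap, and the lowest treated value lay 1.32 above the highest untreated value. The means were 5.16 ± 0.05 in treated cells and 3.66 ± 0.11 in untreated cells (SD, n = 3 each), a log2 difference of 1.49 ± 0.08 (standard error of limma's fit) or 2.82-fold. The spread within either group was small beside this difference, which was 1.48 without untreated replicate 3. On arrays of whole cultures, more cells with CXCR4 RNA and more of it per cell cannot be told apart.

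Among all 1259 probe sets, 22 had a larger positive difference than CXCR4 and 25 a larger difference in either direction. At least a 2-fold higher mean in treated cells was found for 42 probe sets, and at least a 2-fold lower one for 16. The median difference over the array was -0.01. Groups that did not overlap were found for 1 of the 4 CXCR4 and CXCL12 probe sets and for 46.1% of all probe sets. Since the pair was chosen with these values known, nothing is read from that count.

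The CXCR4 probe set was of modest brightness. On the treated arrays 36.9% to 39.3% of probe sets were dimmer, against 14.4% to 18.0% on the untreated arrays. Such a position depends on the probes as well as on the RNA. Detection calls were not used here, so whether the untreated signal lay above background was not tested, and RMA compresses differences of dim probe sets.

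CXCL12 showed no such difference in any of its 3 probe sets. These were of modest to low brightness, with 5.0% to 33.4% of probe sets having a lower mean. Whether their signal lay above background was not tested, so flat values do not show that ligand RNA was present and unchanged. The CXCL12 sets are named for transcripts of different splice forms, which share their first exons and differ at the end of the protein. NM_199168 is the alpha form, NM_000609 the beta form and NM_001033886 the gamma form. The ending of the last name marks a set that can bind several transcripts of the gene, so it is not specific for the gamma form.

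The probe set named for the gamma form read 4.88, 4.99 and 4.86 on treated arrays, against 4.80, 4.82 and 5.06 on untreated arrays. The groups overlapped, and the highest value was untreated replicate 3. Means were 4.91 ± 0.07 in treated cells and 4.90 ± 0.15 in untreated cells (SD, n = 3 each), with a log2 difference of 0.01 ± 0.09 (standard error).

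In the probe set named for the beta form the values were 4.11, 4.02 and 4.56 on treated arrays, against 4.14, 4.27 and 4.13 on untreated arrays. Treated replicate 3 stood above the other 5 arrays, which lay close together. Means were 4.23 ± 0.29 in treated cells and 4.18 ± 0.08 in untreated cells (SD, n = 3 each), and the log2 difference was 0.05 ± 0.12 (standard error). Without treated replicate 3 the difference was -0.12, and it was also negative after quantile normalization (-0.08) and median centring (-0.02).

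The probe set named for the alpha form read 2.83, 2.97 and 3.11 on treated arrays, against 2.90, 2.89 and 3.17 on untreated arrays. The groups again overlapped, with untreated replicate 3 the highest. Its means were 2.97 ± 0.14 in treated cells and 2.99 ± 0.16 in untreated cells (SD, n = 3 each), a log2 difference of -0.02 ± 0.10 (standard error). This was a dim probe set, with only 5.0% of probe sets having a lower mean.

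Without untreated replicate 3 the log2 differences were 0.10, 0.02 and 0.08 in the sets named for the gamma, beta and alpha forms. Averaged over its probe sets, CXCL12 lay between 3.94 and 4.18 on treated arrays, against 3.95 and 4.12 on untreated arrays. The untreated range of the ligand lay inside its treated range, while the 2 ranges of the receptor did not meet.

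**Figure D1:**
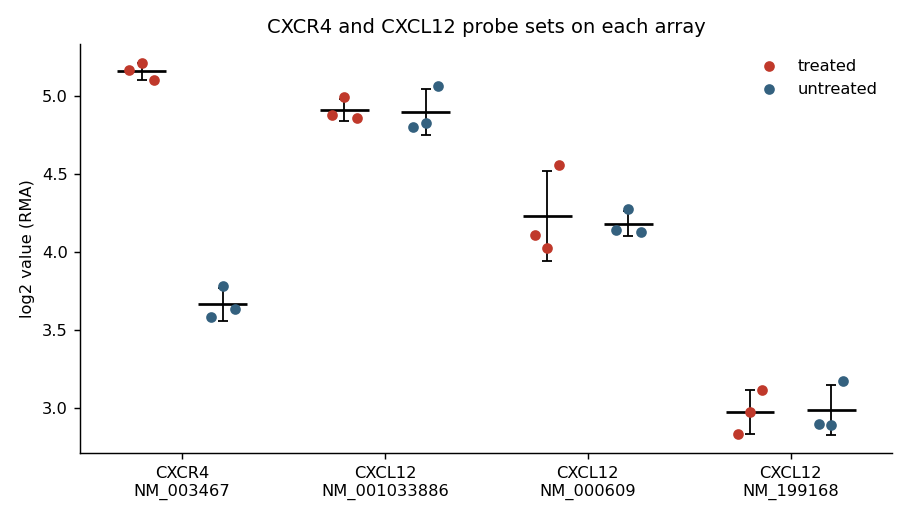
Log2 values (RMA) of the CXCR4 probe set and the 3 CXCL12 probe sets on each array, with treated arrays (red) left of untreated arrays (blue). Points are arrays, bars the mean and SD of 3 arrays. For CXCR4 the treated arrays sit between 5.10 and 5.21, above all untreated arrays, and for the CXCL12 sets the groups overlap.

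**Figure D2:**
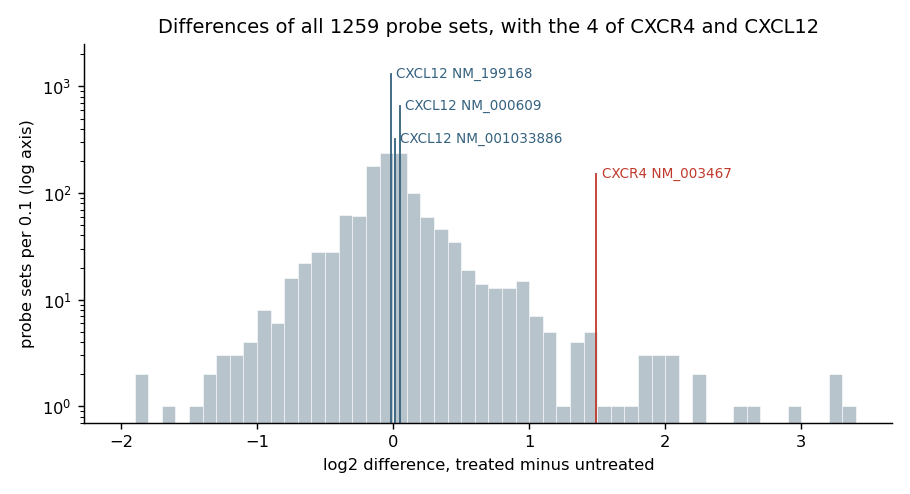
Number of probe sets by log2 difference, treated minus untreated, for all 1259 probe sets on a log count axis. Vertical lines mark the CXCR4 set at 1.49 and the 3 CXCL12 sets between -0.02 and 0.05.

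Cell type markers were few on this array. LGALS4, MUC1, MUC13 and FUT3, typical of colon epithelium, were measured from a list of 13 and had mean log2 values of 6.13 to 9.28. All 4 were called in limma's test, with rises of MUC1 (log2 difference 1.30) and MUC13 (0.96) and falls of FUT3 (-0.51) and LGALS4 (-0.51). The other probe sets of MUC1 differed by less, 0.98 and 0.90, and that of FUT3 by -0.56. Over the whole array 34.8% of probe sets were called, a share to be read beside the calls in each marker list. The summed linear signal of the 4 epithelial markers was 1376 to 1548 on treated arrays and 1185 to 1263 on untreated arrays. The 6 measured leukocyte markers of 14 averaged 3.09 to 5.86 and the 8 measured stromal and endothelial markers of 14 averaged 2.50 to 5.13. Other markers of these cells, such as EPCAM and PTPRC, were not analysed here. Leukocytes carry CXCR4, but HCT-15 is a cell line, so the summed leukocyte signal is given as a description only. On a linear scale it was 215 to 239 on treated arrays and 199 to 211 on untreated arrays. Of its 6 genes CD33 rose by 0.57 ± 0.08 on the log2 scale (SE, limma adjusted p = 0.000168), CD22 fell by 0.25 ± 0.07 (limma adjusted p = 0.013) and 4 were not called. The summed stromal and endothelial signal was 116 to 127 on treated arrays and 118 to 136 on untreated arrays, with a rise of PECAM1 and a fall of PDGFRB among its 8 genes. In a cell line these sums do not measure a share of other cell types, and their relation to CXCR4 was not tested.

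Genes that act on or with the pair were examined next. In limma's test over the whole array, with Benjamini-Hochberg adjustment and an adjusted p under 0.05 taken as a call, 34.8% of probe sets were called, of which 227 rose and 211 fell. Median centring of the arrays gave 197 rises and 311 falls instead. Of 22 listed genes of the CXCR4 and CXCL12 axis 4 were measured. All 4 were called, with 3 rises and 1 fall and a median log2 difference of 0.40, and without untreated replicate 3 there were likewise 3 rises and 1 fall. That list was chosen with earlier results of these data known and is mostly unmeasured, so nothing is read from this count. ACKR3, the other receptor of CXCL12, and DPP4, a protease that trims it, were not analysed here.

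TPST1 and TPST2 encode the tyrosylprotein sulfotransferases, the enzymes that sulfate tyrosines of CXCR4 and other secreted or surface proteins, and both rose. TPST1 averaged 7.92 ± 0.01 in treated cells and 7.43 ± 0.01 in untreated cells (SD, n = 3 each), a log2 difference of 0.49 ± 0.06 (SE, limma adjusted p = 0.000157). TPST2 averaged 7.33 ± 0.12 in treated cells and 6.93 ± 0.04 in untreated cells, a difference of 0.41 ± 0.08 (limma adjusted p = 0.00197). The difference between the groups was larger than the spread within them for both enzymes.

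CD74, the invariant chain of MHC class II and a surface partner of CXCR4 in binding the cytokine MIF, was 1.31-fold higher. Its means were 5.90 ± 0.09 in treated cells and 5.51 ± 0.11 in untreated cells (SD, n = 3 each), with a limma adjusted p = 0.00354. VEGFA, an angiogenic growth factor known as a downstream product of CXCR4 signalling, went the other way. It averaged 8.23 ± 0.06 in treated cells and 9.15 ± 0.15 in untreated cells, a log2 difference of -0.92 ± 0.09 (SE, limma adjusted p = 1.28e-05) or 1.89-fold lower. Its probe set can bind several transcripts of the gene.

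The other chemokine receptors, which guide mostly leukocytes, had small differences. Of 21 listed 14 were measured, among them CCR7 and CXCR3, and limma's test called 0 on the deposited values, against 34.8% of all probe sets, with 0 at an unadjusted p under 0.05. Their log2 differences lay between -0.16 and 0.12, with a median of 0.0017, so none approached the 1.49 of CXCR4. The extremes were CCR10, a receptor for skin and mucosal chemokines, at 0.12 ± 0.08 (SE, adjusted p = 0.296), and CXCR6, the receptor of CXCL16, at -0.16 ± 0.08 (adjusted p = 0.126). CXCR6 was called as a fall after quantile normalization (-0.20, limma adjusted p = 0.0485) and after median centring (-0.23, limma adjusted p = 0.0328). The mean levels of the 14 receptors ran from 2.97 to 6.13, and whether the dim ones lay above background was not tested. CXCR4 was chosen with its difference known, so its standing apart from them is a description only.

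Among 37 measured of 43 listed chemokine ligands other than CXCL12, 8 rose and 2 fell, with a median log2 difference of 0.04. Over the whole array 18.0% of probe sets rose and 16.8% fell. The 6 with the smallest p all rose. CCL5, a chemokine that attracts T cells and monocytes, differed by 2.05 ± 0.12 (SE, limma adjusted p = 5.17e-07). CXCL11, a ligand of CXCR3 that also binds ACKR3, averaged 5.21 ± 0.21 in treated cells and 3.64 ± 0.09 in untreated cells (SD, n = 3 each), a difference of 1.57. CCL26, an eosinophil attractant that acts through CCR3, differed by 1.45 ± 0.10 (SE, limma adjusted p = 1.48e-06).

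CXCL8, a neutrophil attractant, differed by 0.81 ± 0.12 and by 0.82 in its other probe set, XCL2 by 0.74 ± 0.11 and CXCL14 by 0.53 ± 0.08 (SE). The brightest sets of CXCL8, CXCL11 and CXCL14 were dim, with means of 3.98, 4.42 and 3.90 over the arrays. Whether their signal stood above background was not tested. XCL2 has a near-identical copy, XCL1, and its probe set may bind both. CXCL5 (-0.34, limma adjusted p = 0.0125) and CX3CL1 (-0.30, limma adjusted p = 0.015) were the falls. The call of CX3CL1 was lost without treated replicate 1, untreated replicate 1 or untreated replicate 2. Without untreated replicate 1 the falls were CXCL3 and CXCL5. Without untreated replicate 3 there were 9 rises and 2 falls. Falls numbered 1 without treated replicate 1 and 1 without untreated replicate 2, 6 after quantile normalization and 7 after median centring, and there were 3 rises among the probe sets with a mean of at least 4.90. The log2 difference of CXCL12 in its brightest probe set, 0.01, lay within the range of the 27 ligands that were not called, -0.28 to 0.23.

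**Figure D3:**
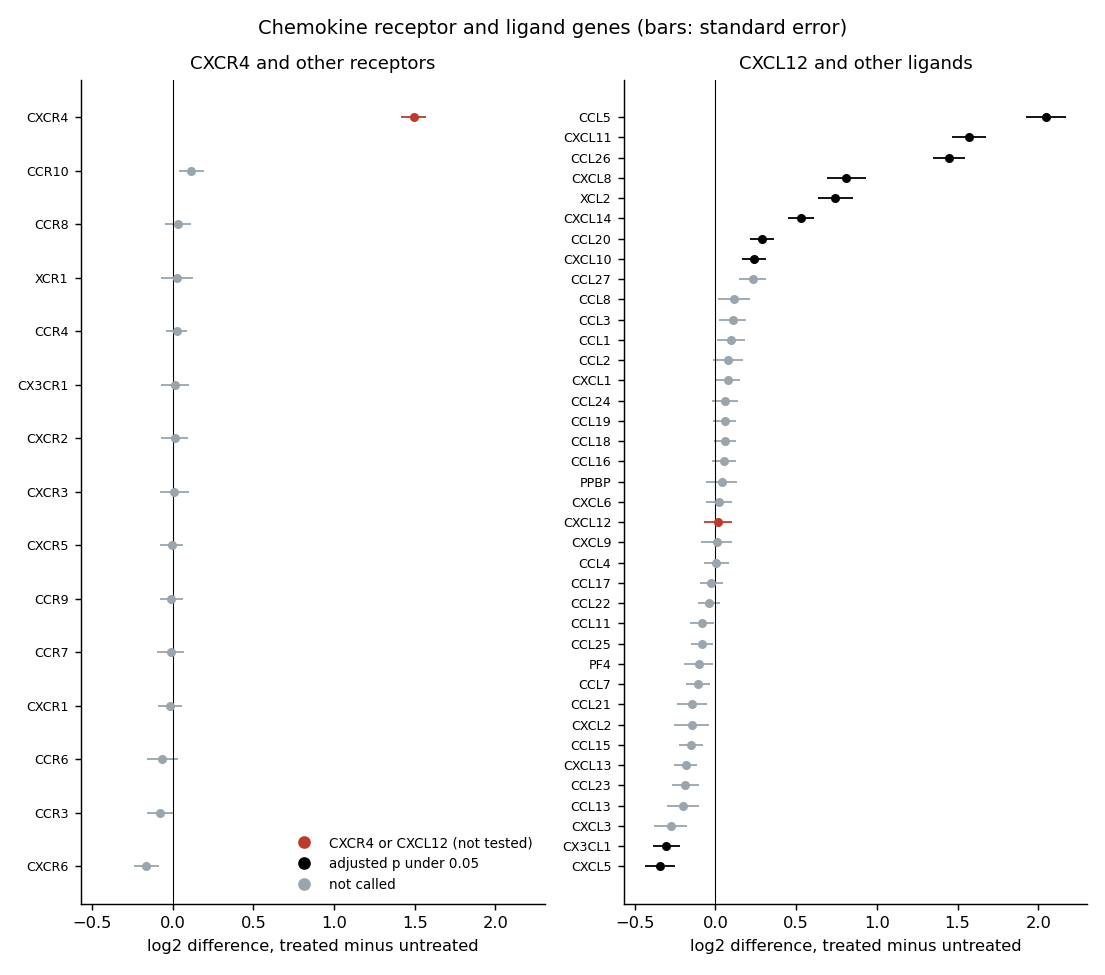
Log2 differences, treated minus untreated, with standard errors of limma's fit, for CXCR4 beside 14 other chemokine receptor genes (left panel) and CXCL12 beside 37 other ligand genes (right panel). CXCR4 stands at 1.49 while the other receptors lie between -0.16 and 0.12, and CXCL12 lies near 0 among the ligands that were not called.

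Heparan sulfate, the glycan that binds CXCL12 at the cell surface, is carried by syndecans and glypicans and patterned by sulfotransferases. Of 22 measured genes of 23 listed, 2 rose and 2 fell in limma's test, with a median log2 difference of -0.01, against 18.0% of probe sets that rose and 16.8% that fell over the whole array. HS6ST2, a 6-O-sulfotransferase, averaged 4.63 ± 0.24 in treated cells and 2.68 ± 0.11 in untreated cells (SD, n = 3 each), a difference of 1.96 ± 0.11 (SE, limma adjusted p = 3.96e-07). Its untreated values lay near the low end of the array, whether they stood above background was not tested, and the filter on dim probe sets leaves this gene out. The membrane proteoglycan SDC4 averaged 10.22 ± 0.07 in treated cells and 9.52 ± 0.08 in untreated cells, a difference of 0.70 ± 0.08 (SE, limma adjusted p = 3.6e-05), and its other probe set differed by 0.58. The glypican GPC4 fell by 0.54 ± 0.09 (limma adjusted p = 0.000983). The 2-O-sulfotransferase HS2ST1 fell by 0.22 ± 0.08 (limma adjusted p = 0.0468), and this call was lost without any one of 5 of the arrays, treated replicate 1 being the exception. The remaining 18 genes, among them SDC1, HS6ST1 and the sulfatases SULF1 and SULF2, were not called.

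The genes whose values over the 6 arrays were most like those of CXCR4 were found by distance. Each gene's log2 values were taken relative to its own mean, and the root mean square distance from CXCR4 was computed for 926 other genes, with a median of 0.757. The nearest was CCL26, at 0.062. INHBB, a subunit of inhibins and activins, followed at 0.113, with values of 7.25 to 7.49 on treated arrays and 5.88 to 6.17 on untreated arrays. CXCL11 was at 0.121. LGALS1, the lectin galectin-1, was at 0.128 with a log2 difference of 1.68, and IFITM1, an interferon-induced membrane protein, at 0.132 with a difference of 1.26. The likeness is mostly one of size, as all 5 were higher on every treated array by an amount near that of CXCR4.

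**Figure D4:**
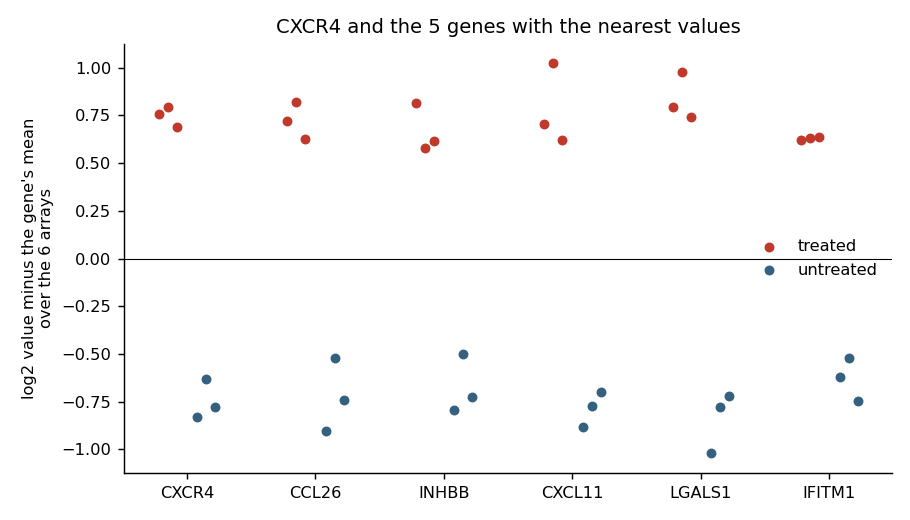
Log2 values relative to each gene's mean over the 6 arrays, for CXCR4 and the 5 genes with the smallest root mean square distance from it, with treated arrays (red) left of untreated arrays (blue). Each point is 1 array, and in all 6 genes the treated points lie above 0 and the untreated points below it.

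For CXCL12, in its brightest probe set, the nearest of the 926 genes were FGF17 at 0.022, CLEC4G at 0.032, SIGLEC10 at 0.039, CXCL9 at 0.041 and CD48 at 0.045, against a median of 0.158. Their log2 differences ranged up to 0.05 for FGF17 and down to -0.0025 for CD48, so their group means lay close together, as those of CXCL12 did. Small differences were common, with a median absolute log2 difference of 0.15 over the array. In CXCL12 and in each of these genes the highest value was on untreated replicate 3, the array titled as treated.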

How the data were processed

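Biotin-labelled cRNA from total RNA of HCT-15 cells was hybridised to Affymetrix arrays, per the labels' protocols. Deposited by the authors were log2 values of 1259 probe sets on 6 arrays, made with RMA per the submitters' processing notes. Neither the settings of RMA nor the platform or a build is given in the sources used here. The log2 scale was inferred from the range, 2.13 to 13.67. Untreated replicate 3 is titled as treated, but was grouped by its source name and treatment entry.

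Transcript identifiers in probe set names were matched without versions to RefSeq genes (GRCh38.p14), giving 1 symbol for 1043 probe sets and 927 genes. For a gene with several probe sets the brightest stood for it. A model with treatment as the only term was fitted to all probe sets (lmFit and eBayes, limma 3.58.1, R 4.3.3), two-sided, with Benjamini-Hochberg adjustment and calls at an adjusted p under 0.05. The fit was tested on simulated data. The members and gene lists were chosen with earlier results of these data known. Named were both members, all measured axis genes, in each other list up to 6 called genes ranked by p, and the 5 genes nearest to each member. Others named, including markers, CXCR6, CCR10, CXCL5 and CX3CL1, were chosen after their values were seen. Deviations of same-numbered arrays from their group means had correlations of -0.27, 0.04 and -0.11. Different-numbered arrays were not compared, so these values cannot settle whether the numbers pair arrays, and the labels do not say. A gene of the chemokine receptor list is not reported here and was left out of that list's counts.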

Additional observations from a re-analysis of the deposited data

How the results depend on the processing

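The log2 difference of CXCR4 was 1.46 after quantile normalization and 1.43 after median centring. Leaving out arrays gave log2 differences of 1.45 to 1.55 for CXCR4, and for CXCL12 -0.03 to 0.10 in the set named for the gamma form, -0.12 to 0.15 in that named for the beta form and -0.09 to 0.08 in that named for the alpha form. The filter on dim probe sets, a mean log2 value of at least 4.90, kept 839 of them and was not run on CXCR4 and CXCL12, as it would leave out CXCR4. Leaving out arrays gave 376 to 440 called probe sets, 198 to 225 rises and 171 to 215 falls. The array titled as treated but labelled untreated, replicate 3, left 440 calls when it was dropped. The replicate block gave 394 calls, and the labels state no link between same-numbered arrays beyond the number.

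Chemokine receptors had 1 fall after quantile normalization and 1 after median centring. Chemokine ligands had 6 to 9 rises and 1 to 2 falls when arrays were left out, 6 falls after quantile normalization, 7 after median centring, 0 at an adjusted p under 0.01, and 3 rises without dim probe sets. Heparan sulfate genes had 2 rises and 1 to 2 falls when arrays were left out, 1 fall with the replicate block, 1 fall at an adjusted p under 0.01, and 1 rise without dim probe sets. Without dim probe sets the counts of rises were lower because the filter removed genes called in the main fit. These were CCL20, CXCL8, CXCL10, CXCL11 and CXCL14 among the ligands and HS6ST2 among the heparan sulfate genes. At an adjusted p under 0.01 the falls were fewer by the cutoff itself. The limma adjusted p was 0.0125 for CXCL5, 0.015 for CX3CL1 and 0.0468 for HS2ST1. Median centring lowered all log2 differences by the same amount, that of CXCR4 from 1.49 to 1.43. Array medians had been 5.90 to 5.92 on treated and 5.81 to 5.88 on untreated arrays. How far this moved the counts, and the cause of the other shifts, was not tested. Calls were followed across settings for 14 genes. These were the called axis genes and, in each other list, up to 6 called genes with the smallest p. They kept call and direction in 169 of 178 recomputations, and the 9 losses were all of HS2ST1. Settings in which the dim filter removed a gene were not counted. Other called genes named here were not followed in this count. Among them CX3CL1, CCL20 and CXCL10 lost their calls in several settings, and CXCL5 at an adjusted p under 0.01. The number of arrays and the dim signals limit the precision.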
